A study of Homo sapiens with 6 samples.

Results

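The genes described here are 55 genes of chromosomal DNA replication, listed by name: the MCM helicase and its relatives, the origin recognition complex and licensing factors, CDC45 and GINS, the replicative polymerases and primase, the sliding clamp and its loader, single-strand binding and Okazaki fragment factors, fork protection proteins, and enzymes that supply deoxynucleotides. All 55 were found among the 20030 gene names of the count table, and all 55 passed the filter on low counts that left 12508 genes to test. The cells were KGN, a human granulosa-like tumour line. In 3 libraries, labelled WT, the cells had received a negative control siRNA, and in 3 libraries, labelled SNHG5 knockdown, an siRNA directed at the long noncoding RNA SNHG5. Both groups carried transfected siRNA, came from 1 line, and were harvested 48 h after transfection, and mRNA libraries were made from 1.0 µg of total RNA. The level of SNHG5 was not analysed here, and the knockdown was therefore not checked in these libraries.

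Before S phase, the origin recognition complex, CDC6 and CDT1 load the MCM2-7 ring onto origins, a step called licensing, and geminin holds CDT1 in check afterwards. At S phase the CDC7 kinase with its activator DBF4, and then MCM10, CDC45 and GINS, turn the loaded ring into a working helicase. Primase and polymerase alpha lay down primers, polymerases delta and epsilon copy the strands while tethered to the PCNA clamp, and ribonucleotide reductase, thymidylate synthase and thymidine kinase supply the building blocks. Many of these genes are textbook targets of E2F transcription factors, and their transcripts are most abundant around the G1/S transition of dividing cells, granulosa cells included.

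Because these genes are known to share E2F-type promoter words, their promoters were read from the RefSeq promoter table (GRCh38.p14), which covers 250 bases before to 50 after each gene start and held 49 of the 55 genes. MCM4, MCM5, GINS4, POLD3, RPA2 and RPA3 had no entry. The words TTTCGCGC and TTTGGCGC were searched on both strands, so that GCGCGAAA and GCGCCAAA count as the same words, and a palindrome such as the one in MCM2 counts on both strands. At least 1 of these E2F words stood in 13 of the 49 genes (26.5%): MCM2, MCM3, MCM6, MCM7, CDC6, GMNN, MCM8, GINS1, POLA1, POLA2, POLE, POLE2 and TIPIN. Of all 35116 promoters in the table, 1.15% held one, and of the 9938 tested genes with a promoter in the table, 2.46% did. A gene counted if any of its promoters held a word, and the 49 genes had 65 promoters. Shares of genes and shares of promoters are therefore unlike measures, and the share of tested genes is the like one. The 7 windows of 80 bases printed here, 5′ to 3′ on the strand of the gene, show the E2F words, and any CCAAT word (the NF-Y box, ATTGG on the other strand), in capitals; they were chosen to cover the helicase, licensing, polymerase and fork protection roles.
MCM2, chr3:127598361-127598440, plus strand: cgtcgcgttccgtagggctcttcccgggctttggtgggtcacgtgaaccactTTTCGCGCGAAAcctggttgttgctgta
MCM3, chr6:52284713-52284792, minus strand: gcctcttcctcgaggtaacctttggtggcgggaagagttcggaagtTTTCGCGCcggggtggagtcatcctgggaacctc
MCM6, chr2:135876552-135876631, minus strand: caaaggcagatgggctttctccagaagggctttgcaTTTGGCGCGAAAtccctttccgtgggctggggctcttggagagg
CDC6, chr17:40287829-40287908, plus strand: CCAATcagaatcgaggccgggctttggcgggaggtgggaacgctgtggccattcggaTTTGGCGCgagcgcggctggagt
GMNN, chr6:24775297-24775376, plus strand: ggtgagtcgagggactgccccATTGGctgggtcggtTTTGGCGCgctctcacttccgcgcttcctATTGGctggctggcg
POLE2, chr14:49688185-49688264, minus strand: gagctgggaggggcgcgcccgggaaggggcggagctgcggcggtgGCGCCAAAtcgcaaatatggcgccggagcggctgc
TIPIN, chr15:66356708-66356787, minus strand: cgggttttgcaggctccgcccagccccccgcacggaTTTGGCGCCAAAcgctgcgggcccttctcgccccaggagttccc

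In MCM2 the E2F word and the same word on the other strand overlap to form TTTCGCGCGAAA. The words overlap as TTTGGCGCGAAA in MCM6 and as TTTGGCGCCAAA in TIPIN. POLE2 holds its word on the opposite strand, across the gene start given in the table. In GMNN the E2F word lies between 2 CCAAT words. CCAAT was found in 29 of the 49 genes (59.2%), against 43.7% of tested genes with a promoter in the table and 34.6% of all promoters. The cell cycle homology word TTTGAA was found in 3 of 49 genes (6.12%: DBF4, POLE3 and RRM1), against 14% of tested genes and 15.2% of all promoters. The NRF1 core word CGCATGCG was found in 3 of 49 genes (6.12%: ORC6, CDT1 and POLA2), against 4.4% of tested genes and 2.02% of all promoters. A word match describes the sequence and is not a measured binding site.

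Total counts were 18232634 to 22088913 per library, and the 55 genes had 222 to 12602 counts each in a library. The labels do not say whether replicates were separate cultures, so p-values measure the spread between these samples, which may be technical. SNHG5 siRNA replicate 2 stood apart from the other libraries of its group: the chi-square per degree of freedom between counts was 8.61 and 8.81 against its mates, 1.91 between those mates, and 3.1 to 4.41 among control libraries. Of 15 granulosa markers, 11 passed the low-count filter, among them FOXL2, the granulosa transcription factor, at 25.3 ± 1.4 CPM in control and 28.6 ± 4.33 CPM in SNHG5 siRNA libraries; aromatase (CYP19A1), INHA, AMHR2 and HSD17B1 did not pass. Their summed level was 1064 to 1155 CPM in control libraries and 548 to 594 CPM with SNHG5 siRNA, most of it follistatin (FST), at 823 ± 46.6 and 308 ± 18.2 CPM (SD, n = 3). The other granulosa markers that passed the filter did not all follow FST. FSHR was lower too, at 3.25 ± 0.242 and 1.47 ± 0.354 CPM, as were NR5A2 (2.78 ± 0.451 and 1.45 ± 0.45) and WT1 (0.731 ± 0.0402 and 0.444 ± 0.12). GATA4 was at 106 ± 1.07 and 82.4 ± 2.57 CPM, GATA6 at 23.8 ± 1.67 and 22.5 ± 2.09, and INHBA at 59.5 ± 3.61 and 58.1 ± 3.06. NR5A1 was at 35.9 ± 1.09 and 38.4 ± 0.595 CPM, AMH at 12.4 ± 0.955 and 13.2 ± 1.04, and INHBB at 6.71 ± 1.32 and 14.4 ± 0.742. All 3 theca markers (CYP17A1, INSL3, LHCGR) were at 0 in every library. At 0 were also 3 of 5 oocyte markers (BMP15, FIGLA, DDX4; the list summed to 0.195 to 0.345 CPM in control and 0.201 to 0.226 CPM in SNHG5 siRNA libraries) and 3 of 5 immune markers (2.07 to 2.8 and 1.94 to 2.16 CPM). Of 4 endothelial markers CDH5 was at 0, and the list's 32.1 to 36.1 CPM in control and 15.3 to 18.3 CPM in SNHG5 siRNA libraries was mostly KDR. The 3 epithelial markers summed to 1.43 to 1.98 and 0.993 to 1.8 CPM. The part of these markers and of replicate 2 in the results was not tested, beyond the values given without that replicate.

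With SNHG5 siRNA, transcripts of 45 of the 55 replication genes rose, DBF4 fell, and 9 did not pass the test (edgeR's quasi-likelihood test, Benjamini-Hochberg adjusted p under 0.05 over all 12508 genes). The changes were modest: the median log2 fold change was 0.31 (quartiles 0.21 and 0.46), the range ran from -0.20 for DBF4 to 0.71 for POLE2, and 20 genes exceeded 0.4. Of the 55 genes, 81.8% rose and 1.82% fell. The background was itself high: 40.2% of all genes tested passed, 20.3% as higher and 19.9% as lower, with a median log2 fold change of -0.01. CPM, the counts scaled to library size, did not overlap between the groups for 49 of the 55 genes, where 49.8% of all tested genes did not overlap. Of genes passing, 50.5% were higher, and with upper-quartile scaling, which moved the median of all genes to -0.05, 39.9% were; under that scaling 42 replication genes were higher and 2 were lower (DBF4 and POLD2). Without SNHG5 siRNA replicate 2, 46 were higher and 2 were lower. In bulk RNA more cells that express a gene and more of its RNA per cell cannot be told apart.

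**Figure D1:**
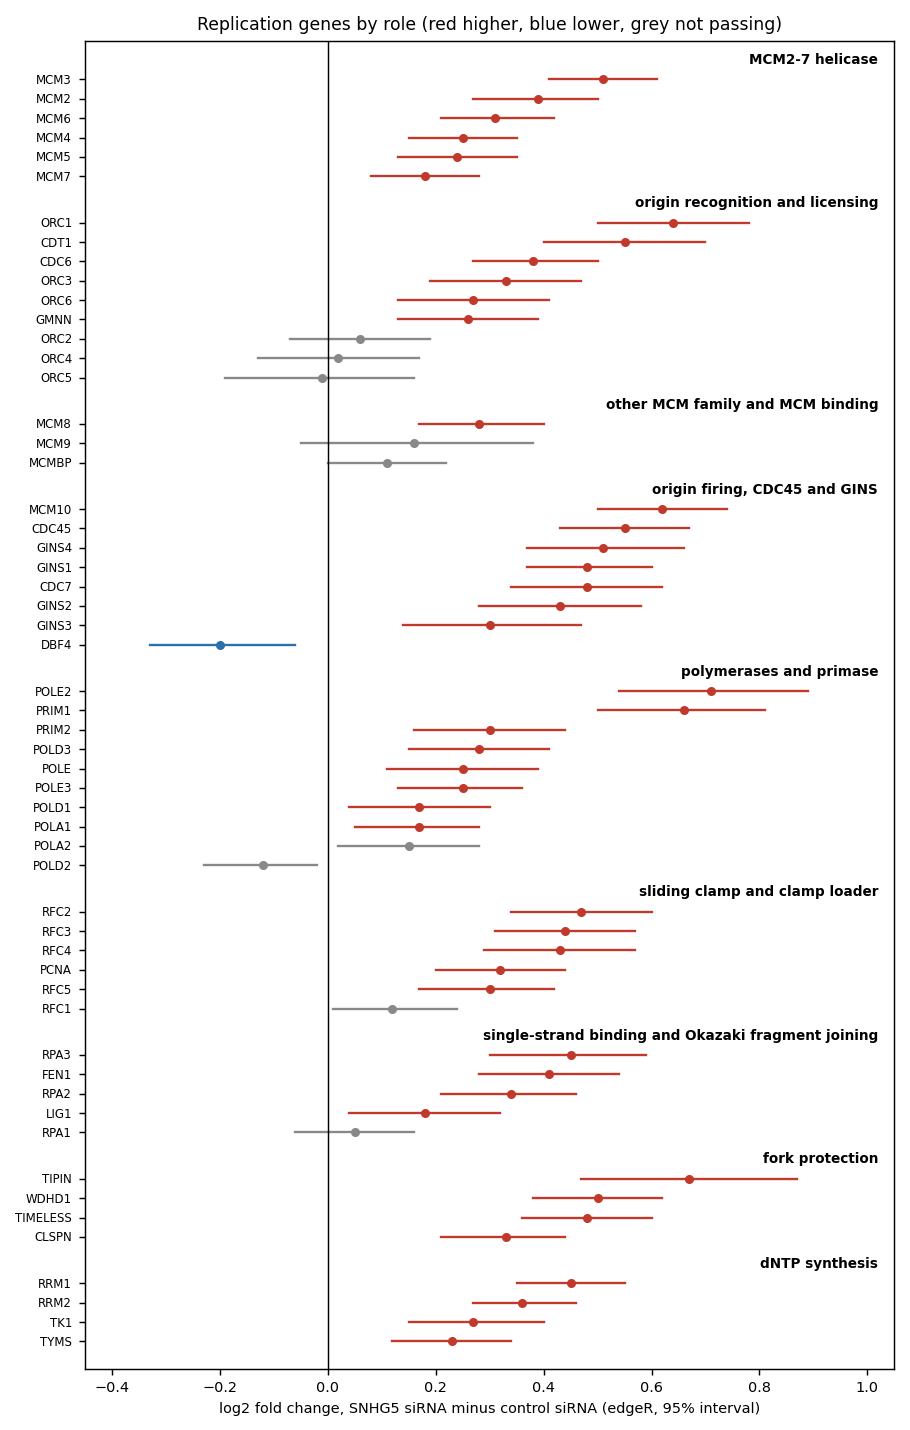
Log2 fold change (x axis, SNHG5 siRNA minus control siRNA, edgeR) of each of the 55 replication genes, grouped by role; bars are 95% intervals, red marks genes that rose, blue the 1 gene that fell and grey the 9 that did not pass. Of the 55 points 52 lie to the right of 0, and they run from DBF4 at -0.20 to POLE2 at 0.71.

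The rise was present in each of the 3 SNHG5 siRNA libraries. The 55 genes held 0.568%, 0.584% and 0.568% of all counts in control siRNA replicates 1, 2 and 3. They held 0.702%, 0.723% and 0.691% in SNHG5 siRNA replicates 1, 2 and 3. Control libraries sat together and the SNHG5 siRNA libraries all lay above them. Relative to the control mean, the median replication gene deviated by -0.02, 0.03 and 0.00 log2 units in the control libraries, and by 0.32, 0.36 and 0.29 in the SNHG5 siRNA libraries, while the median over all tested genes stayed at 0.00 in each. In the SNHG5 siRNA libraries, 50, 51 and 48 of the 55 genes were above every control library. This count was not made for all tested genes, of which 49.8% did not overlap between the groups, in either direction. SNHG5 siRNA replicate 2 was the highest of its group for 33 genes, replicate 1 for 14 and replicate 3 for 8.

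**Figure D2:**
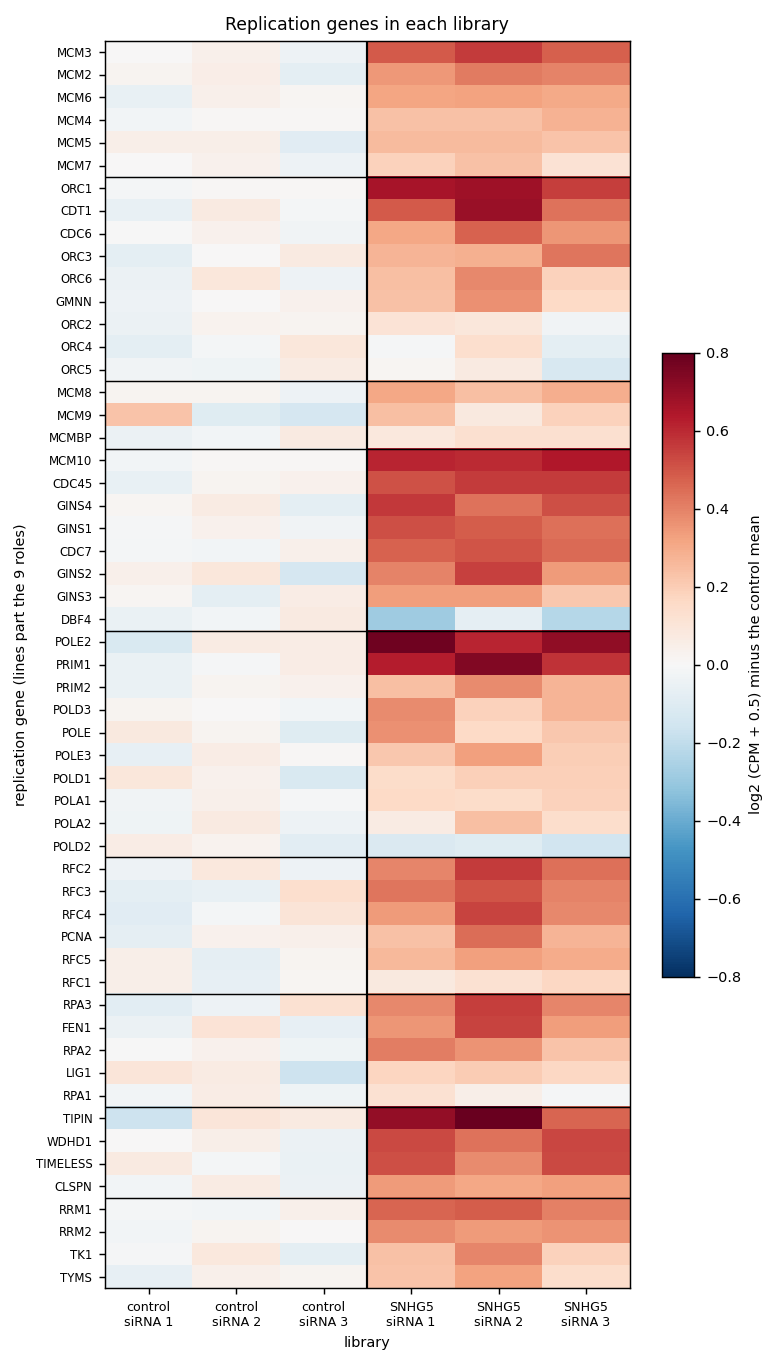
Deviation of each replication gene (rows, grouped by role) in each of the 6 libraries (columns) from the mean of the control libraries, in log2 units of CPM with 0.5 added; red is higher and blue is lower. The 3 SNHG5 siRNA columns are mostly red, and DBF4, POLD2 and a few ORC rows are not.

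All 6 subunits of the MCM2-7 helicase, the hexameric ring that unwinds DNA at the fork, rose, with a median log2 fold change of 0.28. MCM3 (chr6:52264009-52284881, minus strand, GRCh38) was at 204, 209 and 198 CPM in the control libraries and at 286, 300 and 284 CPM with SNHG5 siRNA. The groups lay far apart beside their spread, and the log2 fold change was 0.51 (SE 0.05, adjusted p = 1.76e-07). MCM2 was at 146, 149 and 136 CPM in control libraries and at 182, 191 and 189 CPM with SNHG5 siRNA, again without overlap, a log2 fold change of 0.39 (SE 0.05, adjusted p = 1.18e-05). MCM6 followed at 0.31 (adjusted p = 5.46e-05), MCM4 at 0.25 (2.82e-04), MCM5 at 0.24 (0.00111) and MCM7 at 0.18 (0.00693). The ring holds 1 copy of each subunit. The 95% interval of the log2 fold change was 0.41 to 0.61 for MCM3 and 0.08 to 0.28 for MCM7, the highest and the lowest of the 6, named after their values were seen; their difference was not tested. Per gene length, on the authors' FPKM scale, the control levels were within a factor of 2 of each other, from 30.6 ± 1.06 FPKM for MCM2 to 58.7 ± 1.97 for MCM7 (SD, n = 3).

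In the origin recognition and licensing group 6 of 9 genes rose, and the 3 that did not pass were ORC subunits. ORC1 (chr1:52372829-52404459, minus strand), the subunit that is degraded and remade each cell cycle in human cells, was at 28.4, 28.9 and 28.8 CPM in control libraries and at 45.6, 46.1 and 42.3 CPM with SNHG5 siRNA. The control libraries were almost identical and every SNHG5 siRNA library was well above them, with a log2 fold change of 0.64 (SE 0.07, adjusted p = 4.26e-07). The core subunits ORC2, ORC4 and ORC5 had log2 fold changes of 0.06 (adjusted p = 0.469), 0.02 (0.861) and -0.01 (0.918), with overlapping libraries and 95% intervals of -0.07 to 0.19, -0.13 to 0.17 and -0.19 to 0.16. ORC3 rose by 0.33 (adjusted p = 6.60e-04) and ORC6 by 0.27 (0.00288). The 2 helicase loaders rose: CDC6 by 0.38 (adjusted p = 1.99e-05) and CDT1 by more. CDT1 was at 35.3, 38.8 and 36.4 CPM in control libraries and at 51.8, 59.8 and 49.8 CPM with SNHG5 siRNA, with replicate 2 the highest, a log2 fold change of 0.55 (SE 0.07, adjusted p = 7.48e-06). Geminin (GMNN), which binds and inhibits CDT1, was at 67, 69 and 70.7 CPM and at 81, 88.9 and 77 CPM, a smaller log2 fold change of 0.26 (SE 0.06, adjusted p = 0.0024) with no overlap.

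Of the other MCM family and MCM-binding genes, MCM8, which acts with MCM9 in recombination repair, rose. It was at 74.4, 74.4 and 71.2 CPM in control libraries and at 91, 86.7 and 89.7 CPM with SNHG5 siRNA, a log2 fold change of 0.28 (SE 0.05, adjusted p = 4.16e-04). MCM9 was at 0.16 (adjusted p = 0.209), with overlapping libraries, and passed without control siRNA replicate 1 (0.30, adjusted p = 0.0376). MCMBP, which binds MCM subunits, was at 0.11 (adjusted p = 0.0894) and passed in 2 of 14 alternatives, one of them that without control siRNA replicate 3 (0.15, adjusted p = 0.0391).

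The origin firing group had a median log2 fold change of 0.48; 7 of its 8 genes rose and DBF4 fell. MCM10, a scaffold needed for helicase activation, was at 52.1, 53.4 and 53.3 CPM in control libraries and at 81.1, 80.2 and 82.7 CPM with SNHG5 siRNA. Replicates differed by under 3 CPM in both groups, and the log2 fold change was 0.62 (SE 0.06, adjusted p = 5.90e-08). CDC45, which joins MCM2-7 and GINS in the active helicase, was at 43.7, 46.2 and 46.5 CPM and at 64.9, 67.2 and 67.2 CPM, a log2 fold change of 0.55 (SE 0.06, adjusted p = 5.51e-07). All 4 GINS subunits rose, GINS4 by 0.51, GINS1 by 0.48, GINS2 by 0.43 and GINS3 by 0.30 on the log2 scale, with adjusted p-values from 1.44e-06 (GINS1) to 0.00486 (GINS3).

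CDC7 and DBF4, parts of the origin-firing kinase, moved in opposite directions. CDC7, the catalytic subunit, was at 28.3, 28.1 and 29.5 CPM in control libraries and at 39.8, 40.7 and 39.3 CPM with SNHG5 siRNA, a log2 fold change of 0.48 (SE 0.07, adjusted p = 1.32e-05). DBF4 (chr7:87876216-87909541, plus strand) is a regulatory subunit that activates CDC7. It was at 67, 68.3 and 73 CPM in control libraries and at 56.9, 65.9 and 59.1 CPM with SNHG5 siRNA. The highest SNHG5 siRNA library, replicate 2, lay just under the lowest control library, and the log2 fold change was -0.20 (SE 0.06, adjusted p = 0.0208). The call for DBF4 rested on single libraries. It did not pass without control siRNA replicate 3 (-0.16, adjusted p = 0.0987), without SNHG5 siRNA replicate 1 (-0.15, adjusted p = 0.123) or without SNHG5 siRNA replicate 3 (-0.18, adjusted p = 0.0688), and was at -0.26 (adjusted p = 2.85e-04) without SNHG5 siRNA replicate 2. On the FPKM scale the ratio of CDC7 to DBF4 was 0.491, 0.483 and 0.473 in control libraries and 0.867, 0.754 and 0.82 with SNHG5 siRNA, 1.69-fold higher by the group means. Exons of DBF4 and SLC25A40, a gene on the opposite strand, overlap by 121 bases, and SLC25A40 rose (log2 fold change 0.50, adjusted p = 1.03e-05); the sources used here do not say whether counting used strand.

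Of 10 polymerase and primase genes 8 rose and 2 did not pass, with a median log2 fold change of 0.25. POLE2 (chr14:49643555-49688422, minus strand, GRCh38), an accessory subunit of the leading-strand polymerase epsilon, was at 17.1, 19.6 and 19.5 CPM in control libraries and at 32.3, 28.8 and 30.9 CPM with SNHG5 siRNA. No library overlapped, and the log2 fold change of 0.71 (SE 0.08, adjusted p = 1.61e-06) was the highest of the 55 genes. The catalytic subunit POLE rose by 0.25 (adjusted p = 0.00632) and POLE3, a histone-fold subunit, by 0.25 (0.00173). PRIM1, the catalytic primase subunit, was at 22.5, 23.1 and 24.3 CPM in control libraries and at 36.2, 39.2 and 35 CPM with SNHG5 siRNA, a log2 fold change of 0.66 (SE 0.07, adjusted p = 1.20e-06), and the regulatory subunit PRIM2 rose by 0.30 (adjusted p = 0.00125). POLA1, the catalytic subunit of polymerase alpha, rose by 0.17 (adjusted p = 0.0219) and its partner POLA2 was at 0.15 (adjusted p = 0.0571). In polymerase delta POLD3 rose by 0.28 (adjusted p = 0.00123) and the catalytic POLD1 by 0.17 (0.031). POLD2 was at 244, 239 and 221 CPM in control libraries and at 217, 219 and 211 CPM with SNHG5 siRNA, a log2 fold change of -0.12 (adjusted p = 0.0631) that missed the threshold, although the groups did not overlap. POLD2 passed without SNHG5 siRNA replicate 2 (-0.13, adjusted p = 0.0195) or control siRNA replicate 3 (-0.16, adjusted p = 0.0218), and in 5 of 14 alternatives in all, with log2 fold changes from -0.16 to -0.04. POLA2 passed in 6 of 14 alternatives, among them the fits on FPKM (adjusted p = 0.0393), that with the GC trend removed (0.0164) and that without SNHG5 siRNA replicate 1 (0.0396). POLE did not pass without SNHG5 siRNA replicate 1 (0.19, adjusted p = 0.0605). POLA1 did not pass without SNHG5 siRNA replicate 1 (adjusted p = 0.0597) or 3 (0.0746), nor without replicate 1 of the control (0.0966). It was also lost with upper-quartile scaling (adjusted p = 0.0789), with the GC trend removed (0.0635) and on FPKM (log2 fold change 0.09 with 1 added, adjusted p = 0.242, and 0.11 with 0.1 added, 0.238), and passed in 7 of 14 alternatives. POLD1 did not pass without control siRNA replicate 2 (adjusted p = 0.0553) or 3 (0.134), or SNHG5 siRNA replicate 1 (0.0506) or 3 (0.0782), nor with upper-quartile scaling (0.0971). Its log2 fold change was larger with the GC trend removed (0.30, adjusted p = 3.19e-04) and on FPKM (0.35 with 1 added, adjusted p = 8.56e-04, and 0.36 with 0.1 added, 8.91e-04).

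**Figure D3:**
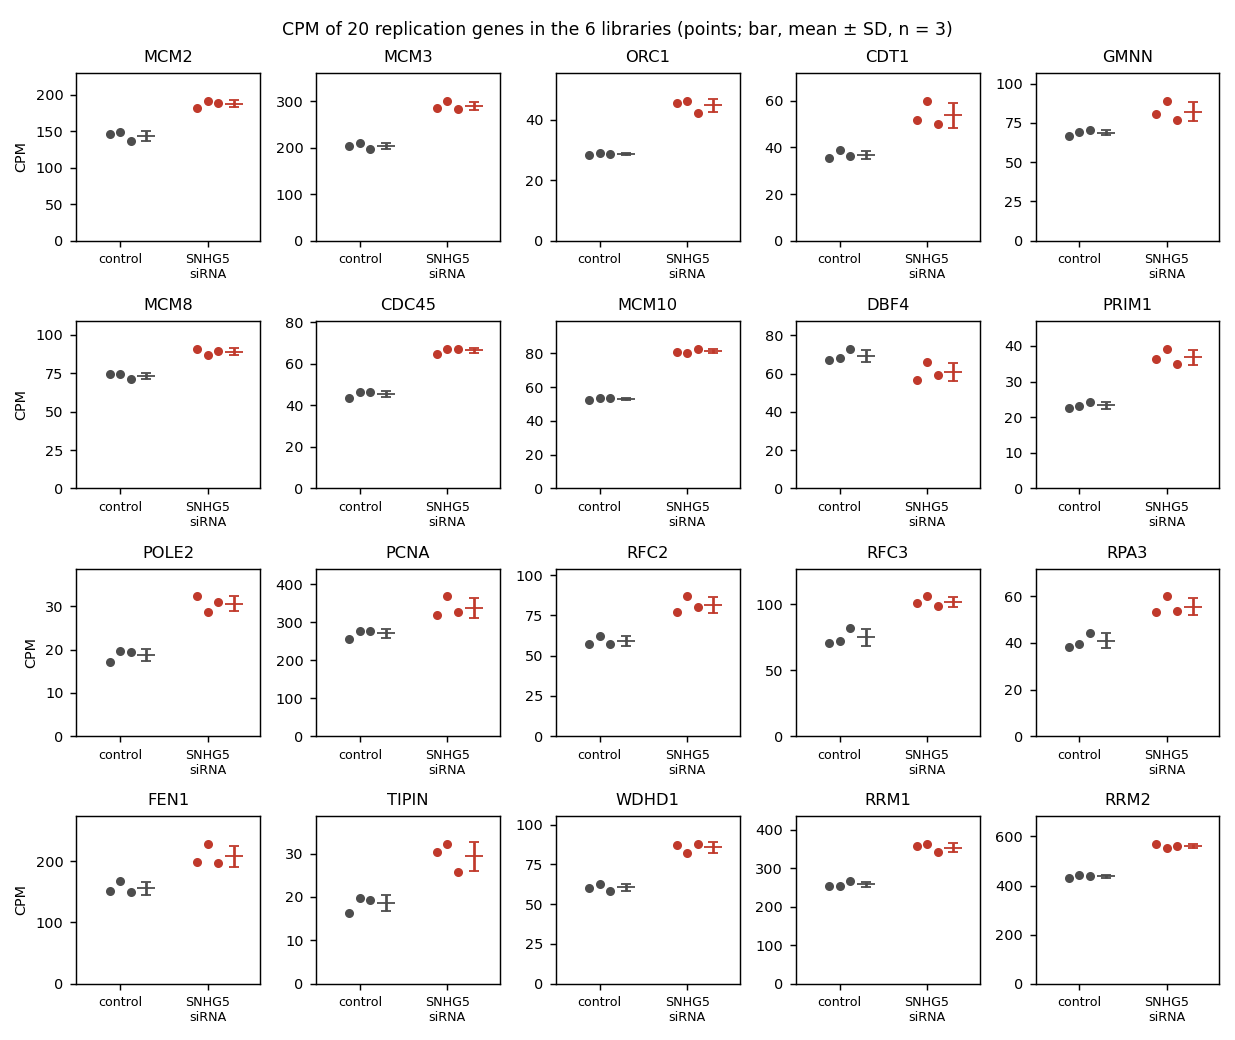
CPM (y axis, from 0) of 20 replication genes in the 3 control siRNA libraries (grey points) and 3 SNHG5 siRNA libraries (red points), with the mean and SD beside them (n = 3). In 19 panels every red point is above every grey point, and in the DBF4 panel every red point is below. Most of the genes were picked as the largest passing changes of their role, so this separation follows in part from the choice. Of all tested genes, 49.8% did not overlap between the groups.

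The sliding clamp PCNA, which tethers polymerases to DNA, and the clamp loader showed a median log2 fold change of 0.37. PCNA (chr20:5114953-5126626, minus strand) was at 257, 277 and 278 CPM in control libraries and at 319, 368 and 327 CPM with SNHG5 siRNA, with replicate 2 the highest and no overlap. Its log2 fold change was 0.32 (SE 0.06, adjusted p = 2.10e-04). RFC2, a small loader subunit, was at 57.1, 62.3 and 57 CPM and at 77.3, 86.7 and 79.9 CPM, a log2 fold change of 0.47 (SE 0.06, adjusted p = 8.06e-06). RFC3, another small subunit, was at 70.8, 71.9 and 82.3 CPM and at 101, 106 and 98.7 CPM, a log2 fold change of 0.44 (SE 0.06, adjusted p = 1.61e-05). RFC4 rose by 0.43 and RFC5 by 0.30. The large subunit RFC1 was at 0.12 (adjusted p = 0.0789; 95% interval 0.01 to 0.24), and passed in 2 of 14 alternatives, one of them that without SNHG5 siRNA replicate 2 (0.12, adjusted p = 0.0494).

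In the single-strand binding complex RPA 2 of 3 subunits rose. RPA3, the smallest subunit, was at 38.4, 39.7 and 44.5 CPM in control libraries and at 53.3, 60 and 53.7 CPM with SNHG5 siRNA, a log2 fold change of 0.45 (SE 0.07, adjusted p = 4.75e-05). RPA2 rose by 0.34 (adjusted p = 2.05e-04), and the large DNA-binding subunit RPA1 was at 0.05 (adjusted p = 0.453; 95% interval -0.06 to 0.16), with overlapping libraries. FEN1, the nuclease that trims Okazaki fragments, was at 151, 168 and 149 CPM and at 199, 228 and 197 CPM, a log2 fold change of 0.41 (SE 0.06, adjusted p = 3.90e-05). LIG1, the ligase that then joins them, rose by 0.18 (adjusted p = 0.0392); it did not pass without SNHG5 siRNA replicate 1 (0.18, adjusted p = 0.0753) or 3 (0.19, adjusted p = 0.0616), nor without replicate 3 of the control (0.10, adjusted p = 0.182) or with upper-quartile scaling (0.14, adjusted p = 0.114). On FPKM the log2 fold change of LIG1 was 0.29 with 1 added (adjusted p = 0.0059) and 0.31 with 0.1 added (0.00602).

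All 4 fork protection genes rose, with a median log2 fold change of 0.49. TIPIN was at 16.4, 19.8 and 19.4 CPM in control libraries and at 30.3, 32.2 and 25.7 CPM with SNHG5 siRNA. SNHG5 siRNA replicate 3 was the lowest of its group yet above all controls, and the log2 fold change was 0.67 (SE 0.10, adjusted p = 1.82e-05). Its partner TIMELESS rose by 0.48 (adjusted p = 2.52e-06), and CLSPN, which couples stalled forks to the checkpoint kinase, by 0.33 (8.14e-05). WDHD1, which links polymerase alpha to the helicase, was at 60.4, 62.4 and 58.5 CPM and at 87.2, 81.8 and 87.7 CPM, a log2 fold change of 0.50 (SE 0.06, adjusted p = 1.28e-06).

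All 4 deoxynucleotide genes rose. RRM1, the large subunit of ribonucleotide reductase, was at 255, 255 and 266 CPM in control libraries and at 357, 363 and 342 CPM with SNHG5 siRNA, a log2 fold change of 0.45 (SE 0.05, adjusted p = 6.29e-07). RRM2, its S-phase small subunit, was at 431, 443 and 439 CPM and at 569, 555 and 561 CPM, a log2 fold change of 0.36 (SE 0.05, adjusted p = 4.46e-06). Both subunits were higher in every SNHG5 siRNA library than in any control library. Thymidylate synthase (TYMS) rose by 0.23 (adjusted p = 0.00218) and thymidine kinase (TK1) by 0.27 (0.00141).

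Per gene length, the most abundant of the 55 transcripts in control libraries was PCNA, at 152 ± 6.54 FPKM, followed by RRM2 at 122 ± 3.31, TYMS at 105 ± 4.96 and TK1 at 92 ± 4.1 (SD, n = 3). With SNHG5 siRNA they were at 189 ± 12.5, 151 ± 5.06, 125 ± 7.09 and 122 ± 12.3 FPKM. MCM9, at 1.54 ± 0.247 and 1.66 ± 0.106 FPKM, was the lowest. Some partners that act together changed by different amounts on this scale; the pairs were chosen after their values were seen, so no test is given. The ratio of ORC1 to ORC4 was 1.51 ± 0.0413 in control and 2.55 ± 0.128 in SNHG5 siRNA libraries, that of CDT1 to its inhibitor GMNN 1.15 ± 0.111 and 1.63 ± 0.163, and that of POLE2 to POLE 1.42 ± 0.064 and 1.74 ± 0.157. In all 3 pairs the lowest ratio with SNHG5 siRNA was above the highest control ratio. Because the pairs were chosen on these values, this separation is no support for a difference. The share of other gene pairs that separate in this way was not counted.

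**Figure D4:**
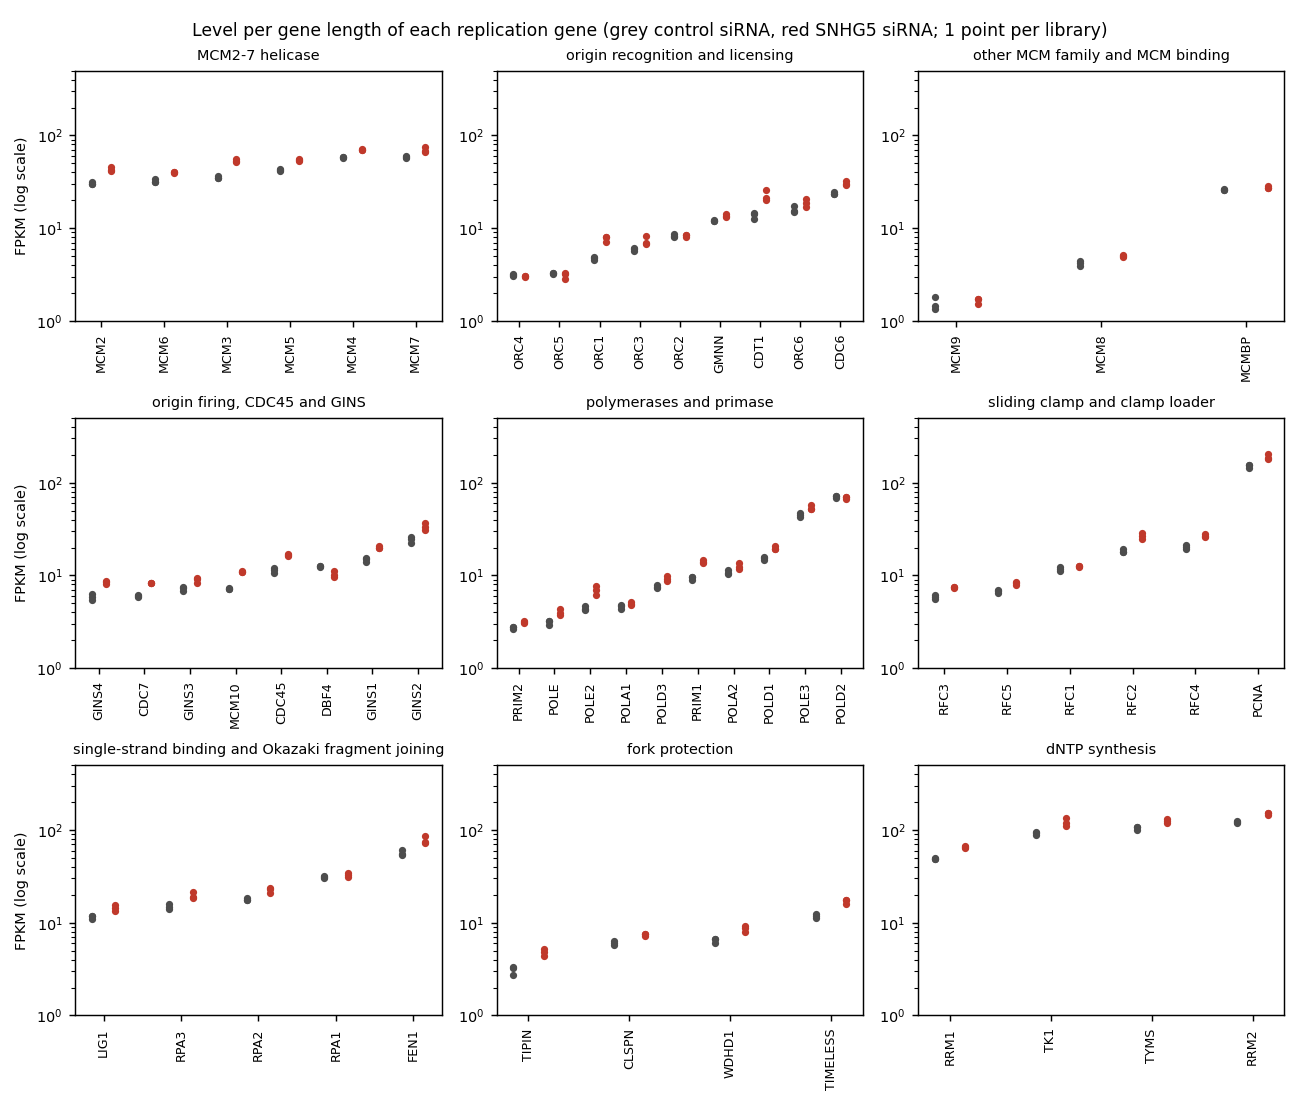
FPKM (y axis, log scale) of each of the 55 replication genes, 1 panel per role and 1 point per library, ordered within a panel by control level; grey is control siRNA and red is SNHG5 siRNA. Levels span from MCM9 near 1.54 to PCNA near 152 FPKM in control libraries, and the shift between groups is small beside the differences between genes.

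Another 49 genes of the replication pathway were listed by role. Of these 27 rose, 3 fell and 19 did not pass, with a median log2 fold change of 0.18. In shares, 55.1% rose and 6.12% fell, where 20.3% of all tested genes rose and 19.9% fell. By role, the share that rose ran from 25% of the 4 genes of CRL4 licensing control, where 25% also fell, to 85.7% of the fragment processing genes and topoisomerases. Among origin firing regulators 4 of 10 rose, among them TOPBP1, a firing factor and checkpoint activator (0.35, adjusted p = 6.41e-05), and 1 fell. That was LRWD1, an ORC-associated protein, at 33.5 ± 2.61 CPM in control and 25.1 ± 1.94 CPM in SNHG5 siRNA libraries (-0.42, adjusted p = 4.81e-04). Of 7 other polymerase and alternative clamp loader subunits 5 rose, led by ATAD5, which unloads PCNA (0.52, adjusted p = 2.62e-05), and DSCC1 (0.45, 1.97e-04). Of 7 fragment processing genes and topoisomerases 6 rose, with RNASEH2C at 0.27 (adjusted p = 0.0138) and the nuclease DNA2 at 0.26 (0.0038). RNASEH2C did not pass without control siRNA replicate 1 (adjusted p = 0.0581) or 3 (0.0601). In the same role TOP1 (0.13, adjusted p = 0.0372) passed in 6 of 14 alternatives and RNASEH2B (0.21, 0.0221) in 7 of 14.

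Of 9 genes that rebuild chromatin behind the fork 6 rose, led by CHAF1A, the large subunit of the histone chaperone CAF-1, from 64.1 ± 5.63 to 96.4 ± 5.87 CPM (0.59, adjusted p = 1.32e-06), and the histone chaperone NASP (0.36, adjusted p = 1.61e-05). In the CRL4 ubiquitin ligase, which destroys CDT1 during S phase, the substrate receptor DTL rose from 70.3 ± 0.161 to 105 ± 1.04 CPM (0.58, adjusted p = 7.63e-08), and the scaffold CUL4B fell from 464 ± 16.1 to 418 ± 29.9 CPM (-0.15, adjusted p = 0.0332). The fall of CUL4B did not pass without control siRNA replicate 1 (adjusted p = 0.101) or 3 (0.118), or SNHG5 siRNA replicate 2 (-0.09, adjusted p = 0.0775) or 3 (0.0577). Of 12 other nucleotide supply genes 5 rose and 1 fell. Among them DUT, which removes dUTP, rose by 0.36 (adjusted p = 6.97e-05). RRM2B, the p53-inducible small subunit of ribonucleotide reductase, fell from 63.1 ± 1.47 to 51.4 ± 1.63 CPM (-0.30, adjusted p = 4.63e-04), opposite to RRM2; the FPKM ratio of RRM2 to RRM2B was 10.4 ± 0.259 in control and 16.7 ± 0.686 in SNHG5 siRNA libraries.

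For comparison, 21 of 39 homologous recombination and checkpoint genes rose and 1 fell, with a median log2 fold change of 0.24. Of 31 mitotic kinase, kinetochore and spindle checkpoint genes 15 rose and 7 fell, with a median of 0.13. As shares, 53.8% of the first list and 48.4% of the second rose, where 20.3% of all tested genes did, and 2.56% and 22.6% fell, where 19.9% of all tested genes did. The differences between these lists and the 55 replication genes were not tested.

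**Figure D5:**
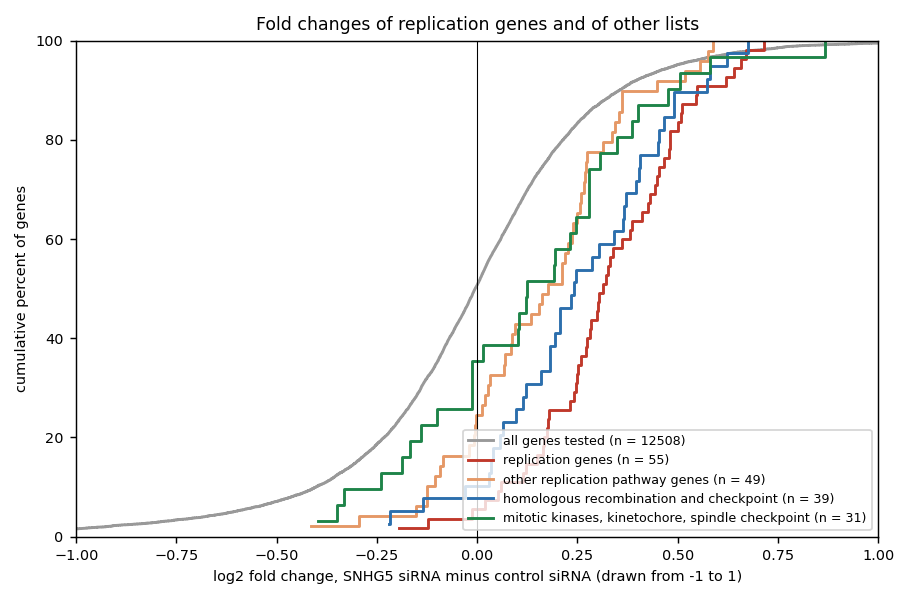
Cumulative percent of genes (y axis) by log2 fold change (x axis, drawn from -1 to 1) for the 55 replication genes, 49 other replication pathway genes, 39 homologous recombination and checkpoint genes, 31 mitotic genes and all 12508 genes tested. The curve of the 55 replication genes (median 0.31) lies to the right of that of all genes (median -0.01), with the mitotic list (median 0.13) between them.

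Replication genes with and without an E2F word in the promoter window had equal median fold changes. Of the 13 genes with a word, 12 rose, and of the 36 others with a promoter in the table, 27 were higher; the median log2 fold change was 0.31 in both sets. Among all tested genes with a promoter in the table, 244 held the word, of which 80 rose (32.8%) and 33 fell, with a median of 0.07. These 244 include the 13 replication genes. The median was -0.00 for tested genes without the word, and of all tested genes 20.3% rose and 19.9% fell. The difference was not tested. POLE2 (0.71) and TIPIN (0.67), with the highest log2 fold changes, hold the word. PRIM1 (0.66), ORC1 (0.64) and MCM10 (0.62), which follow, hold neither spelling. A window of 300 bases without these letters says nothing about E2F binding.

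The title of the series names miR-92a-3p. Its mature sequence, from RefSeq (GRCh38.p14), is printed with the seed, bases 2 to 8, in capitals, followed by the 7-base match to the seed, in capitals, in the annotated 3′ UTRs (GENCODE release 29) of MCM6 and DBF4.
hsa-miR-92a-3p: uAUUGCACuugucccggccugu
MCM6, chr2:135839813-135839835, minus strand: gctttccaGTGCAATgtgaattt
DBF4, chr7:87908444-87908466, plus strand: ccagtgaaGTGCAATttggggaa

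A site stood in 3 of the 55 genes (5.45%; MCM6, CDC6 and DBF4), against 1719 of 12288 tested genes with an annotated 3′ UTR (14%). MCM6 and CDC6 rose, by 0.31 and 0.38, and DBF4 fell, by 0.20 on the log2 scale. The median log2 fold change of tested genes was 0.02 with the site and -0.01 without it.

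Some of these values rest on reads that could belong to a neighbour or copy. Exons of 10 of the 55 genes overlap another gene of the count table, the longest overlaps being TYMS with ENOSF1 (719 bases), ORC4 with ACVR2A (430), MCM7 with AP4M1 (216) and FEN1 with TMEM258 (166), all on opposite strands. For 9 genes (DBF4, FEN1, PCNA, POLD2, RFC3, RFC5, RPA2, RRM2 and TYMS), GENCODE names at least 1 pseudogene, and 0 of these pseudogenes had a row of their own in the table, so how reads shared with them were assigned is uncertain. The 55 genes had a median GC content of 45.4%, against 48.3% over all tested genes, and a median transcript length of 3240 bases against 3484. With a trend on GC content removed, 45 genes were higher and 1 lower.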

How the data were processed

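Poly(A) RNA profiles of KGN cells were given as 2 tables over the same 6 libraries, with 0 columns of other samples. The deposited counts are whole reads per gene name, not normalised by the authors. The deposited FPKM are fragments per kilobase and per library depth, as the authors computed them. Per the submitters' processing notes, reads were trimmed with Trimmomatic and the build was GRCh38; the aligner, counter, annotation and use of strand are not given in the sources used here.

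TMM factors (0.998 to 1.003) were computed in R 4.3.3 with edgeR 4.0.16; counts were filtered with filterByExpr, and 12508 of 20030 names were tested with its quasi-likelihood test (2-sided; positive values are higher with SNHG5 siRNA), with Benjamini-Hochberg adjustment over all genes tested. A further 7522 names were not tested, and 4 entries shared a name with another. The threshold was an adjusted p under 0.05, and "rose" and "fell" are used of passing genes. SE and 95% intervals come from the same fit, and values after "rose by" or "fell by", and those in brackets beside an adjusted p, are log2 fold changes, as are values given as "was at" with no unit. CPM are TMM-scaled, given per library or as mean ± SD (n = 3). The test was also run on simulated counts.

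The members and lists were chosen with earlier results of these data known. Values in every library are given for the 2 largest passing changes of each of 9 roles, for passing genes that fell, and for MCM2, PCNA, RRM2, CDT1 and GMNN; of the other pathway genes, the 2 largest passing changes of each role and those that fell are named, except that some items are not reported here. CDC7 and POLD2 were shown in full, TOP1 and RNASEH2B named, and the ratios chosen, after their values were seen. Alternatives were DESeq2 1.42.0, upper-quartile scaling, no filter, limma 3.58.1 on log2 FPKM with 1 or 0.1 added, a replicate block, GC and length trends, and each library left out. GENCODE release 29 gave lengths, GC content and 3′ UTRs for 19261 names; RefSeq gave promoters and the miRNA. Python 3.11.15 with pandas 2.3.3, numpy 2.4.6, scipy 1.17.1 and matplotlib 3.10.9 was used.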

Additional observations from a re-analysis of the deposited data

How the results depend on the processing

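Under 14 alternatives 41 of the 55 replication genes passed in the same direction each time; the passing genes that did not were DBF4, POLA1, POLD1, POLE and LIG1. Leaving out each library in turn, 42 to 46 genes rose, 0 to 2 fell and the median log2 fold change was 0.30 to 0.33, with 3991 to 5608 genes passing in all, and 21 to 28 of the other pathway genes rising and 2 to 3 falling. With upper-quartile scaling the median was 0.27 and 2 replication genes fell; 2 also fell with the length trend removed and with the replicate block, in place of 1, the second being POLD2. The replicate numbers were not taken to pair the libraries, since deviations of same-numbered libraries from their group means correlated at 0.046, 0.130 and 0.026 and not every library correlated best with its own number; with the replicate block 48 replication genes rose and 5714 genes passed in all, the genes gained being POLA2 (adjusted p = 0.0216), POLD2 (0.0268), MCMBP (0.0473) and RFC1 (0.0483). DESeq2 called 4478 genes in all, the FPKM fits 3878 and 3874. Of 462 recomputed values of the 33 genes the naming rule chose, 453 kept their direction and side of the threshold, 9 lost significance (DBF4, RNASEH2C and CUL4B) and 0 reversed; the cause was not tested. With 3 libraries a group, genes within about 0.1 log2 units of no change, such as ORC2, ORC4, ORC5 and RPA1, cannot be called either way, and ORC2, ORC4 and ORC5 changed sign between alternatives without passing.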
